A study of Mus musculus with 8 samples.

Results

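Oncostatin M and interleukin-6 (IL-6) family signalling was described through 8 genes measured in mouse aorta: the ligands Osm and Il6, the receptor chains Osmr, Lifr, Il6st and Il6ra, the transcription factor Stat3 and the feedback inhibitor Socs3. A member was any probe set, the group of short probes that reads 1 transcript on the array, annotated to exactly 1 of these symbols. This gave 21 of the 45037 probe sets in the table, for 8 of 18193 named genes. The family was selected on a measured value: Osmr had one of the smallest p-values between mutant and control aorta. Differences between mutant and control in the members are therefore given as a description, without a test.

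The mutant mice had the genotype SRF-flex2neo -SM22CreERT2ki/+. They carried floxed Srf, the gene of serum response factor, and a tamoxifen-dependent Cre recombinase knocked into 1 allele of the gene of SM22 (Tagln), which is active in smooth muscle cells. Control mice were SRF-flex2neo littermates without the Cre named in their labels. Mice of both groups were 4 months old, received tamoxifen (1 mg, intraperitoneal, on 3 days) and were killed 8 days after it, so the floxed gene and the drug were common to all samples. There were 4 mutant and 4 control arrays of total RNA from aorta. Their titles number 2 sets of 4, with 2 arrays of each group in each set: mutants 1 and 2 and controls 1 and 2 in set 1, mutants 3 and 4 and controls 3 and 4 in set 2. The labels do not state what this number means or whether every array was a separate mouse. The p-values below therefore cover only the variation among these arrays, part of which may be technical.

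Cytokines of this family signal through receptor complexes that share the chain gp130, the product of Il6st. IL-6 first binds its own receptor Il6ra, leukaemia inhibitory factor uses Lifr, and oncostatin M in the mouse acts mainly through Osmr. The bound complexes activate Janus kinases, which phosphorylate the transcription factor STAT3, and STAT3 in turn induces Socs3, the protein that damps the signal. In vessel walls the family is known for its part in inflammatory activation of smooth muscle cells, fibroblasts and endothelium.

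Several members lie beside a relative in the RefSeq annotation (GRCm38.p6). Osmr and Lifr are adjacent protein-coding genes on chromosome 15, Osm lies next to the related ligand gene Lif and Stat3 next to Stat5a on chromosome 11, and Il6st lies next to the receptor gene Il31ra on chromosome 13. A promoter window was found for 7 of the 8 members, all but Osm. The 250 bases before the annotated start are printed from RefSeq for the neighbours Osmr and Lifr, whose brightest probe sets both had higher means in mutants, and for Socs3, the STAT3 feedback gene. Lifr has 2 annotated windows, and the one with the lower coordinate is shown. The STAT element TTCNNNGAA and the CArG box, the sequence that SRF binds, were searched on both strands. Capitals mark the STAT element.
Osmr, chr15:6874314-6874563, minus strand: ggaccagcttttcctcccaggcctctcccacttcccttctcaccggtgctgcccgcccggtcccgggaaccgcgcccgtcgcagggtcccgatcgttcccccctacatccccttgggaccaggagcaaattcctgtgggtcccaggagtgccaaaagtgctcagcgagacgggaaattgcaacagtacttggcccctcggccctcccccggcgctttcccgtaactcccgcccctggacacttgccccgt
Lifr, chr15:7129322-7129571, plus strand: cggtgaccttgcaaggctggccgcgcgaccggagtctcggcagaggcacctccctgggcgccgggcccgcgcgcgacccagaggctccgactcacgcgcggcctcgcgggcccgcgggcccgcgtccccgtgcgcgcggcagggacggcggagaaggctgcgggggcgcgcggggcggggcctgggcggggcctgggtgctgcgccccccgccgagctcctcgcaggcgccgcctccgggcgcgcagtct
Socs3, chr11:117969367-117969616, minus strand: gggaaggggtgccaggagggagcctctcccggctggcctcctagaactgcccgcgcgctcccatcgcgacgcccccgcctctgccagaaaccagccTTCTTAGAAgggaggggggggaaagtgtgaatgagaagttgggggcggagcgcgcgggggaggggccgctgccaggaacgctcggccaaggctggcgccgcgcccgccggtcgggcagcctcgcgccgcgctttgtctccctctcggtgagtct
The STAT element was found once among the 8 member windows, as TTCTTAGAA in Socs3, ending 145 bases before the start. It occurs in 7.02% of the 32851 windows of this length. No member window held a CArG box, which occurs in 1.47% of windows. These are letter matches within short windows and do not show binding.

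Array medians ran from 3.72 to 3.98 (log2), and precision is limited by the number of arrays. Mutant 2 stood apart from the other arrays. Across the probe sets tested, its correlations with the other 7 arrays were 0.926 to 0.952, against 0.965 to 0.994 among those 7, and the sympathetic neuron gene Th was at 9.92 in mutant 2 and at no more than 2.20 in any other array. The brighter probe set of Srf averaged 10.10 ± 0.38 in mutants and 10.30 ± 0.17 in controls (log2 value, SD, n = 4 each; difference -0.20, SE 0.19, limma adjusted p = 0.686). Where this probe set lies relative to the deleted part is not given, so it does not check the deletion. Probe sets in the dimmest 40% of the table were left out of the fit, which kept 27021. Between mutant and control, 0 of these (0%) passed a limma adjusted p of 0.05 and 2581 (9.55%) had an unadjusted p under 0.05. Without control 3, 11 passed.

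Neither ligand had a probe set above the filter on dim probe sets. Osm, the ligand of Osmr, was at 2.20, 2.20, 2.24 and 2.22 in mutants 1 to 4, against 2.19, 2.22, 2.23 and 2.22 in controls 1 to 4 (log2 values, here and below in that order). Il6 was at 2.13, 2.10, 2.16 and 2.15 in mutants, against 2.11, 2.15, 2.17 and 2.15 in controls. All 8 arrays lay within 0.05 of each other for Osm and within 0.07 for Il6, and a level this low in the table cannot be told from background. Of the 21 member probe sets, 15 passed the filter, and they represent 6 of the 8 genes. The other 4 that did not pass were 1 each of Osmr, Lifr, Il6ra and Stat3, and over all 6 left out the values ran from 2.04 to 2.98.

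Osmr, the specific chain of the oncostatin M receptor, was higher in the mutant arrays within each set. Its brightest probe set (1418674_at) was at 9.93, 10.04, 10.55 and 10.58 in mutants, against 9.26, 9.21, 9.98 and 9.98 in controls. Within set 1 and within set 2, both mutants lay above both controls. Across sets the groups overlapped, since mutant 1 of set 1 was below the controls of set 2. The means were 10.28 ± 0.34 in mutants and 9.61 ± 0.43 in controls (SD, n = 4 each), and the fitted difference with the set as a term was 0.67 (SE 0.06), or 1.59-fold. It was 0.75 in set 1 and 0.585 in set 2. The dimmer probe set 1418675_at was at 6.20, 5.49, 5.34 and 5.60 in mutants, against 5.34, 5.11, 5.35 and 4.37 in controls. Its difference was of similar size, 0.61, with an SE of 0.25, and the groups overlapped in set 2. The third probe set, 1459217_at, stayed between 2.43 and 2.55 in all arrays and was not fitted. In whole-tissue RNA, a change in the number of cells of a type and a change in RNA per cell cannot be told apart.

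**Figure D1:**
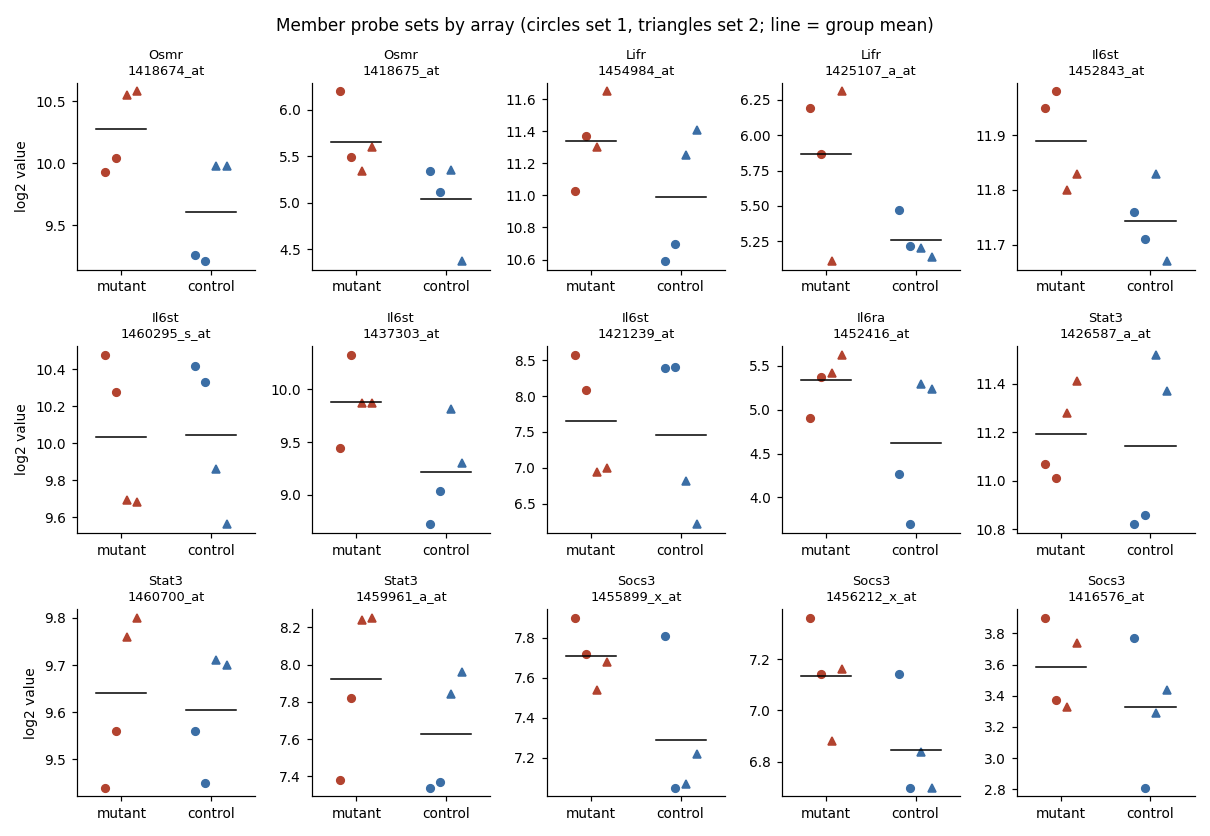
Log2 value of the 15 member probe sets that passed the filter, in 4 mutant arrays (red, left) and 4 control arrays (blue, right); circles are set 1, triangles set 2, and the line is the group mean. The vertical axes differ between panels and do not start at 0. For Osmr 1418674_at each mutant lies above the controls of its own set, while the triangles of the controls lie level with the circles of the mutants.

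Lifr, the receptor chain of leukaemia inhibitory factor and the chromosomal neighbour of Osmr, was also higher in mutants in set 1. Probe set 1454984_at was at 11.03, 11.37, 11.30 and 11.65 in mutants, against 10.59, 10.70, 11.25 and 11.41 in controls. Both mutants exceeded both controls in set 1, where the difference was 0.555, and the groups overlapped in set 2, where it was 0.145. The fitted difference was 0.35 (SE 0.13). Probe set 1425107_a_at was at 6.19, 5.87, 5.11 and 6.31 in mutants, against 5.47, 5.22, 5.20 and 5.14 in controls, a difference of 0.61 (SE 0.26). Mutants 1, 2 and 4 were above all controls there, and mutant 3 was below them all.

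The 4 probe sets of Il6st, the shared chain gp130, differed among themselves. In the brightest, 1452843_at, mutants were at 11.95, 11.98, 11.80 and 11.83, against 11.76, 11.71, 11.83 and 11.67 in controls. This is a difference of 0.15 (SE 0.06), with the mutants of set 1 above every control. Probe set 1460295_s_at had near-equal means, 10.03 ± 0.41 in mutants and 10.04 ± 0.40 in controls (SD, n = 4 each). By contrast 1437303_at was at 9.44, 10.33, 9.87 and 9.87 in mutants, against 8.72, 9.04, 9.81 and 9.30 in controls. Both mutants exceeded both controls in each set, and the difference was 0.66 (SE 0.25). For the dimmest, 1421239_at, the difference was 0.20 (SE 0.19), at -0.06 in set 1 and 0.46 in set 2. Suffixes such as _s mark probe sets that can read more than 1 transcript.

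Il6ra, the binding chain for IL-6, had the highest difference among the members fitted, at a low level with a wide spread among controls. Probe set 1452416_at was at 4.91, 5.38, 5.42 and 5.63 in mutants, against 4.27, 3.69, 5.29 and 5.24 in controls. Mutants were above controls in each set. The gap was 1.165 in set 1, through the low controls 1 and 2, and 0.26 in set 2, with a fitted difference of 0.71 (SE 0.24).

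Stat3, the transcription factor below the receptors, differed little in its brightest probe sets. Probe set 1426587_a_at was at 11.07, 11.01, 11.28 and 11.41 in mutants, against 10.82, 10.86, 11.52 and 11.37 in controls, a fitted difference of 0.05 (SE 0.08). Mutants were higher in set 1 (0.20), and in set 2 the means lay the other way (-0.10) with overlap. Probe set 1460700_at differed by 0.04 (SE 0.06), and centring each array on its median turned the sign of both of these differences. The third, 1459961_a_at, was at 7.38, 7.82, 8.24 and 8.25 in mutants, against 7.34, 7.37, 7.84 and 7.96 in controls. Both mutants exceeded both controls in each set, by 0.245 in set 1 and 0.345 in set 2 (fitted difference 0.29, SE 0.11).

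Socs3, which STAT3 induces and which blocks signalling at gp130, had higher means in mutants in each of its 3 probe sets. Probe set 1455899_x_at was at 7.90, 7.72, 7.54 and 7.68 in mutants, against 7.81, 7.05, 7.07 and 7.22 in controls. Controls 2 to 4 were below every mutant, and control 1 was above 3 of the mutants. The fitted difference was 0.42 (SE 0.17). The other probe sets differed by 0.29 (SE 0.13; 1456212_x_at) and 0.26 (SE 0.23; 1416576_at), with control 1 the highest control in each. The suffix _x marks probes that may bind other transcripts too. Socs3 is the member whose printed promoter window holds the STAT element.

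Of the 15 member probe sets fitted, 14 had a difference above 0, where 40% of all probe sets tested did, and 1 was below it. Their median was 0.29, against -0.04 over all probe sets tested. Groups did not overlap in either set, with mutants higher in both, for 4 of the 15: Osmr 1418674_at, Il6st 1437303_at, Il6ra 1452416_at and Stat3 1459961_a_at. This was so for 4.11% of all probe sets. Over all 8 arrays at once, 0 of the 15 had every mutant above every control, as 1.43% of all probe sets did, and 0 had every mutant below every control, as 1.57% did. Since the family was chosen through this contrast, these counts describe the members and are no support for a change.

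**Figure D2:**
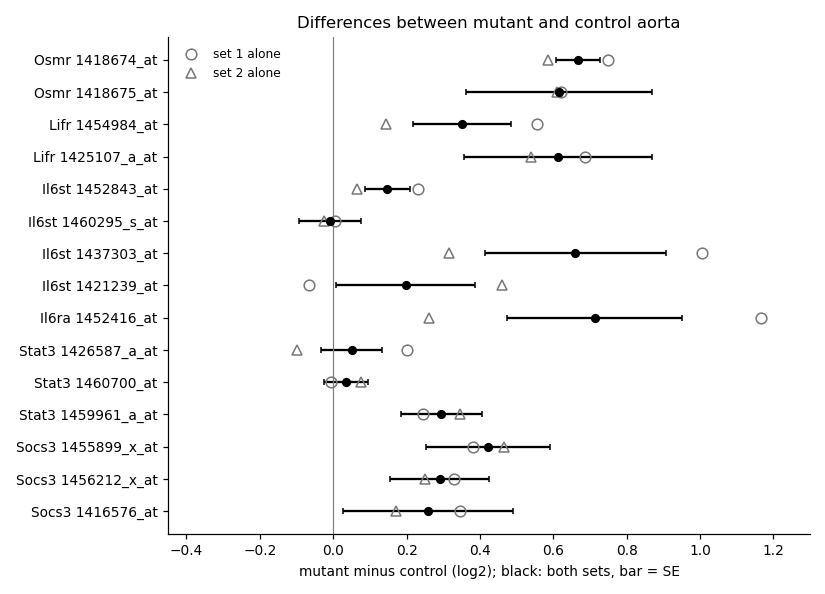
Difference of mutant minus control on the log2 scale for each fitted member probe set; the black point is the fit over both sets with its SE, and open circles and triangles are set 1 and set 2 alone. Values run from -0.01 (Il6st 1460295_s_at) to 0.71 (Il6ra 1452416_at). The SE is 0.06 for Osmr 1418674_at, against 0.25 for Il6st 1437303_at and 0.24 for Il6ra.

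Whether the difference between mutant and control was unequal in the 2 sets was tested with an interaction term. None of the 15 passed (limma, lowest adjusted p = 0.824), and 1, that of Il6ra, had an unadjusted p under 0.05. Over all probe sets 0.0518% passed and 5.12% had an unadjusted p under 0.05. Il6ra had the lowest interaction estimate, -0.91 (SE 0.36), and Il6st 1437303_at had -0.69 (SE 0.45). For Osmr 1418674_at it was -0.165 (SE 0.12). No member probe set had its mutants all on one side of the controls in set 1 and all on the other side in set 2, a pattern of 4.23% of all probe sets.

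The sets themselves differed in the receptor and STAT3 genes, in a contrast that did not itself choose the members. For Osmr 1418674_at this test is still not independent of the choice. Its small p-value between mutant and control rests partly on a small SE (0.06), and its set difference has the same SE (0.06). Of the 15 probe sets, 8 passed the limma test of set 2 against set 1, where 21.4% of all probe sets did. Higher in set 2 were 6 (10.9% of all probe sets), from Osmr, Lifr, Il6ra and all 3 fitted probe sets of Stat3. Lower were 2 (10.6% of all probe sets), both of Il6st.

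Osmr 1418674_at rose to 10.27 in set 2, against 9.61 in set 1, a difference of 0.66 (95% confidence interval 0.52 to 0.81, limma adjusted p = 0.00117). This is about the size of its difference between mutant and control. The dimmer Osmr probe set 1418675_at lay the other way, at -0.37 (interval -0.97 to 0.23, limma adjusted p = 0.316). Stat3 1426587_a_at was higher by 0.455 (limma adjusted p = 0.0101), 1459961_a_at by 0.595 (limma adjusted p = 0.011) and 1460700_at by 0.24 (limma adjusted p = 0.0315). Lifr 1454984_at was higher by 0.48 (limma adjusted p = 0.0447) and Il6ra 1452416_at by 0.83 (limma adjusted p = 0.0493). Lifr 1425107_a_at lay the other way, at -0.25 (interval -0.86 to 0.36, limma adjusted p = 0.5).

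Within Il6st the probe sets disagreed about the sets. Probe set 1421239_at was at 6.94 and 7.00 in mutants and 6.81 and 6.21 in controls of set 2, against 8.58 and 8.09 in mutants and 8.39 and 8.41 in controls of set 1. Every array of set 2 lay more than 1 unit below every array of set 1, and the difference was -1.63 (interval -2.08 to -1.18, limma adjusted p = 0.00229). Probe set 1460295_s_at fell by 0.68 (limma adjusted p = 0.0028). Probe set 1452843_at, the brightest, differed by -0.07 (interval -0.21 to 0.08, limma adjusted p = 0.45) and 1437303_at by 0.33 (interval -0.26 to 0.92, limma adjusted p = 0.359). No probe set of Socs3 passed (differences -0.24, -0.19 and -0.01).

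Of the 8 calls, 5 held when any single array was left out: those of Osmr 1418674_at, the 2 of Il6st, and Stat3 1426587_a_at and 1459961_a_at. The call of Lifr was lost without any of mutants 1 and 4 or controls 1 to 4 (highest limma adjusted p = 0.115). That of Stat3 1460700_at was lost without any of mutants 1, 3 and 4 or controls 2 to 4 (highest limma adjusted p = 0.0898), and that of Il6ra without any array but mutant 2 (highest limma adjusted p = 0.125).

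**Figure D3:**
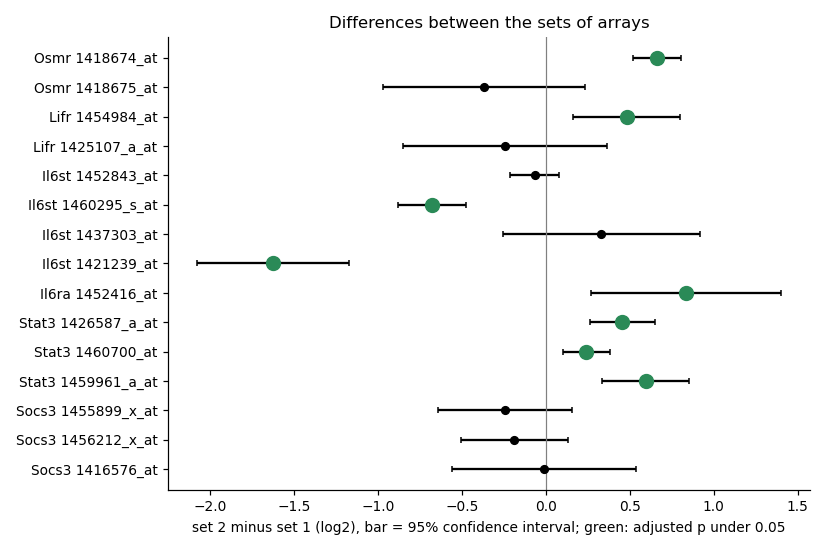
Difference of set 2 minus set 1 on the log2 scale for each fitted member probe set, with its 95% confidence interval; green points passed a limma adjusted p of 0.05. The 2 green points left of 0 are Il6st 1421239_at (-1.63) and 1460295_s_at (-0.68), and the 6 on the right belong to Osmr, Lifr, Il6ra and Stat3.

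Other genes of the pathway were taken from 5 lists of 46 genes, 41 with a probe set of their own and 30 with one that passed the filter. Between mutant and control 0 of the 30 passed (limma, lowest adjusted p = 0.444, 0% of all probe sets). An unadjusted p under 0.05 was found for 3, as for 9.55% of all probe sets. Of the 30, 18 were above 0, where 40% of all probe sets were, and 12 were below. That share counts every probe set tested, while each of the 30 is the brightest probe set of its gene. The median of the 30 was 0.06, against -0.02 over all 12173 genes fitted with their brightest probe set.

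Among further ligands, 2 of 9 could be fitted. Clcf1, a cytokine of the ciliary neurotrophic factor branch, averaged 5.38 ± 0.12 in mutants and 5.38 ± 0.45 in controls, and Ctf1, cardiotrophin 1, averaged 6.74 ± 0.19 in mutants and 6.85 ± 0.25 in controls (SD, n = 4 each). None of the 4 further receptors (Il11ra1, Cntfr, Il27ra, Il31ra) could be fitted. Kinases and signal carriers lay close to 0: 4 of 9 were above it and 5 below, with a median of -0.03. The adaptor Shc1 (-0.215, SE 0.08), the phosphatase Ptpn11 (-0.175, SE 0.08), the kinase Tyk2 (0.165, SE 0.12) and the transcription factor Stat5b (-0.11, SE 0.10) had the lowest p-values there, none passing. For Ptpn11 every mutant lay below every control, at 11.68 to 11.89 in mutants and 11.91 to 12.11 in controls, as in 1.57% of all probe sets. Of the inhibitors 2 of 6 were above 0 and 4 below (median -0.17), with the lowest p-values for Pias1 (-0.23, SE 0.13), Pias3 (-0.21, SE 0.13), Cish (0.705, SE 0.51) and Ptpn2 (-0.14, SE 0.12), none passing.

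Response genes of STAT3 and the acute phase had mostly higher means in mutants, and the larger differences were in set 1. Of 13 fitted, 12 were above 0, where 40% of all probe sets were, and 1 was below. Each of the 13 is again the brightest probe set of its gene, unlike the probe sets behind that share. The median was 0.57 over both sets, 0.98 in set 1 and -0.01 in set 2. None passed. Serpina3n, an acute-phase protease inhibitor, was at 8.37, 9.15, 7.63 and 7.73 in mutants, against 5.42, 5.47, 7.66 and 6.07 in controls, a difference of 2.06 (SE 0.59, limma adjusted p = 0.444). Only control 3 reached the range of the mutants. Cebpd, a transcription factor of the acute phase, was at 10.61, 10.60, 11.36 and 11.76 in mutants, against 9.95, 9.50, 11.37 and 11.11 in controls (difference 0.60, SE 0.17, limma adjusted p = 0.444). The proto-oncogene Myc was at 4.68, 5.31, 3.61 and 3.60 in mutants, against 3.62, 3.28, 3.63 and 3.60 in controls, so that mutants 1 and 2 alone stood out. Il4ra, a chain of the interleukin-4 receptor, had every mutant above every control, as 1.43% of all probe sets did (lowest mutant 6.21, highest control 6.17; difference 0.49, SE 0.24, limma adjusted p = 0.558). Without mutant 2, 11 of the 13 response genes were above 0 and the median was 0.30. All fitted marker lists but that of striated muscle also had their larger median difference, by size, in set 1. It was 1.945 in set 1 and 0.435 in set 2 for leukocytes, 1.57 and 0.605 for endothelial cells, and 3.065 and -0.54 for fat cells. For fibroblasts it was 1.38 and 0.88, for smooth muscle -0.34 and -0.22, and for striated muscle 0.05 and -0.46, in the same order of sets. The part of these cells in the response genes was not tested.

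**Figure D4:**
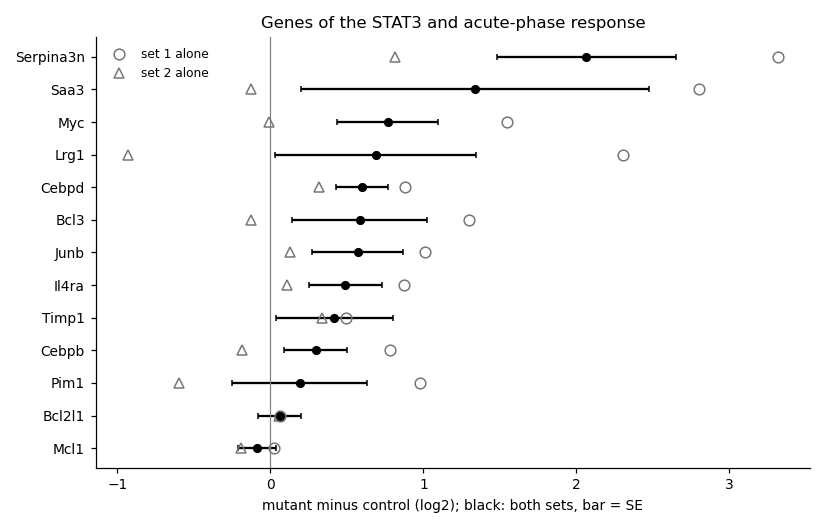
Difference of mutant minus control on the log2 scale for 13 response genes of STAT3 and the acute phase; the black point is the fit over both sets with its SE, open circles are set 1 alone and open triangles set 2 alone. The circle lies right of the triangle for each gene, and the gap is widest for Lrg1 (2.31 in set 1 and -0.93 in set 2).

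The genes whose profile was most like that of Osmr were ranked by Pearson's r with 1418674_at over the 8 arrays, after the mean of each set had been subtracted. They were Elmo1 (r = 0.990), Cln3 (0.980), Sox18 (0.979), Os9 (0.976), Ptprb (0.975) and Dpy19l1 (0.971). Sox18 encodes an endothelial transcription factor and Ptprb an endothelial phosphatase. Only Ptprb among these genes is in a marker list used here, and the ranking assigns no cell type to Osmr. With the set means removed, the profile of Osmr is mostly its difference between mutants and controls, the contrast that chose it, so this ranking and the values of the members below restate that contrast. Of 12172 genes compared, 114 exceeded 0.9. Among the members, in their brightest probe sets, Il6ra (0.852), Il6st (0.834) and Lifr (0.800) were nearest, followed by Socs3 (0.718), and Stat3 was at 0.347.

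Markers of fibroblasts, endothelial cells and leukocytes had differences of the same sign as Osmr, and smooth muscle markers the opposite sign. All 6 smooth muscle markers were present at high level and had lower means in mutants (median -0.28). Their summed linear value was 117832 to 126403 in mutants, against 137533 to 146626 in controls. Acta2 differed by only -0.015 (SE 0.05), with overlapping groups. Tagln, part of this sum, is the gene into which the Cre of the mutants was knocked. Srf was targeted in these same cells, so their markers cannot tell fewer cells from less RNA per cell. Of adventitial fibroblast markers 7 of 7 were higher (median 1.03), with a sum of 21042 to 29036 in mutants, against 7428 to 24155 in controls. Endothelial markers were higher in 7 of 7 (median 0.99; sum 4589 to 14030 in mutants, against 2762 to 5957 in controls). Of the markers of macrophages and further leukocytes, 9 of 9 fitted were higher (median 1.25; sum 1452 to 2478 in mutants, against 696.3 to 1380 in controls), with Itgam not above the filter. No single marker passed (limma), although an unadjusted p under 0.05 was found for 4 smooth muscle, 7 fibroblast, 6 endothelial and 8 leukocyte markers. Of all probe sets, 9.55% had such a p-value. The part of these cells in the values of Osmr, Il6ra, Lifr and Socs3 was not tested.

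Within each set, both mutants exceeded both controls in the mean marker level of fibroblasts, endothelial cells and leukocytes, as for Osmr 1418674_at. In set 2 the fibroblast means were 11.29 and 11.25 in mutants, against 10.98 and 9.81 in controls, and the leukocyte means were 6.03 and 6.16 in mutants, against 5.95 and 5.38 in controls. Controls 3 and 4 were both at 9.98 for Osmr 1418674_at and differed in those fibroblast means. For the dimmer Osmr probe set 1418675_at they were at 5.35 and 4.37, in the same order as those means. Mutants 1 and 2 had higher leukocyte marker means (7.37 and 7.06) than mutants 3 and 4 (6.03 and 6.16), and lower values of Osmr 1418674_at. For 1418675_at, mutants 1 and 2 were at 6.20 and 5.49, and mutants 3 and 4 at 5.34 and 5.60. Mutants 1 and 2 are of set 1 and mutants 3 and 4 of set 2, and 1418674_at was higher in set 2 in controls too. The fitted set difference of 1418675_at lay the other way, at -0.37 (SE 0.25). What these cells contribute to Osmr was not tested by these values. Markers of fat cells had a median of 1.34 over 3 genes. Neutrophil markers had a median of 0.06 over 2 fitted genes, striated muscle markers -0.16 over 4, and no lymphocyte marker passed the filter. Th and Dbh, the 2 fitted nerve markers, were high in mutant 2 alone, and the difference of Osmr 1418674_at without that array was 0.63.

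**Figure D5:**
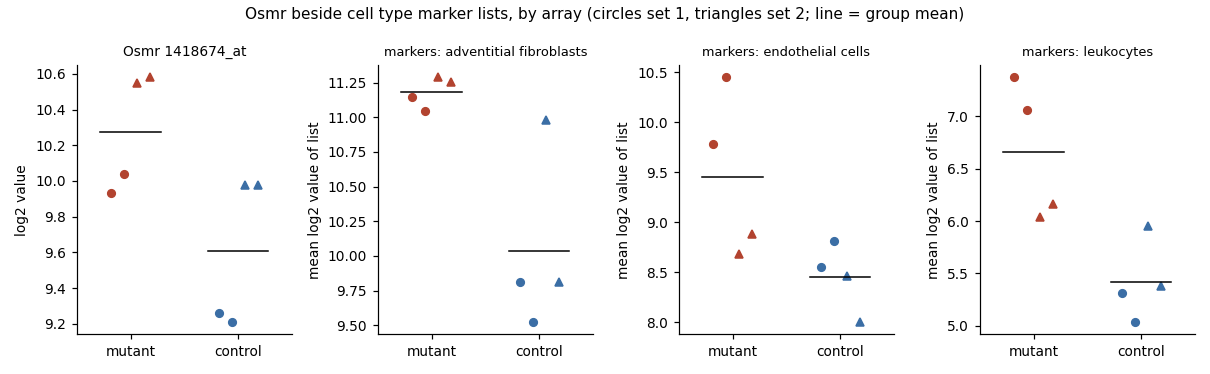
Log2 value of Osmr 1418674_at and mean log2 value of 3 marker lists in 4 mutant arrays (red, left) and 4 control arrays (blue, right); circles are set 1, triangles set 2, and the line is the group mean. For Osmr the triangles lie above the circles within each group, a difference between the sets. For the leukocyte markers the mutant circles lie above the mutant triangles.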

How the data were processed

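Total RNA of mouse aorta (2 ug per array) was labelled and hybridized to Affymetrix arrays, per the labels' protocols. In the deposited table each probe set has log2 values, a scale inferred from their range (0.90 to 15.82). A prior scaling of the arrays to each other was assumed, with array medians of 3.72 to 3.98. The submitters' processing notes name GCOS without a version, and no source used here states the background correction, normalization or summarization. Probe sets with 1 symbol in the platform annotation (34945 of 45037) were named.

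Nothing was renormalized. Probe sets in the dimmest 40% by mean were dropped. Genotype and set were fitted with limma 3.58.1 (R 4.3.3) with a mean-variance trend, two-sided, adjusted by Benjamini-Hochberg over 27021 probe sets at 0.05. SE is limma's moderated standard error. A gene in a list is its brightest probe set. Members and lists were chosen with earlier results of these data known. Named were all members, up to 4 genes of lowest p per pathway list and the 6 most like Osmr; other named genes, such as Lrg1 and Th, were chosen after their values were seen. Alternatives were other filters, normalizations, terms, variance models, array weights, each array left out and each set alone. The procedure was tested on simulated data. Figures used Python 3.11.15.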

Additional observations from a re-analysis of the deposited data

Results flagged for a closer look

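In groups of 4 arrays, 6 of 90 had a highest or lowest array far from the others by Dixon's 95% criterion, which chance meets in about 1 group in 20. None was a member probe set, but each group pooled arrays of both sets. A difference between sets widens the range and can hide an array that is far from the others. Saa3, an acute-phase gene, was at 8.38 in mutant 1 and at no more than 3.36 in the other mutants. Il4ra was at 6.88 in mutant 2, against 6.32 or less in the other mutants, and at 5.38 in control 1, against 6.07 or more in the other controls. Myc was at 3.28 in control 2, below the other controls (3.60 to 3.63). Ptpn11 was at 12.11 in control 1 and 11.91 in each of the other controls, and Ptpn6 at 3.44 in mutant 3, against 3.30 or less in the other mutants.

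In 4 pathway genes, mutants lay all on one side of the controls in set 1 and all on the other side in set 2, as in 4.23% of all probe sets. Lrg1 differed by 2.305 in set 1 and -0.93 in set 2, Pim1 by 0.98 and -0.595, Cebpb by 0.78 and -0.185, and Clcf1 by -0.325 and 0.32, in the same order of sets. None passed the interaction test over all probe sets (limma adjusted p = 0.351 for Lrg1, 0.565 for Cebpb, and 0.824 for Pim1 and for Clcf1).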

How the results depend on the processing

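The difference of Osmr 1418674_at was 0.67 as reported, 0.595 with each array centred on its median (a step that moved the median over all probe sets from -0.04 to -0.11), 0.75 in set 1 alone and 0.585 in set 2 alone. It was 0.63 to 0.69 when arrays were left out one at a time. Between mutant and control, 0 probe sets passed in every other setting, but 10 passed with array weights and 0 to 11 when single arrays were left out (11 without control 3). No other pathway gene passed in any setting tried. Of members, 8 passed between sets as reported, 5 with no filter, 5 with no genotype term, and 5 to 9 when single arrays were left out; with no filter the calls of Lifr, Il6ra and Stat3 1460700_at were lost. No member passed the interaction test in any setting. The sign of the difference turned in some settings for 4 of the 15 member probe sets, Il6st 1460295_s_at (6 of 18 settings), Il6st 1421239_at (1), Stat3 1426587_a_at (2) and Stat3 1460700_at (2). Other filters, leaving out the set term and other variance models cannot alter the difference in this balanced design. Those settings, counted among the 18, could therefore not turn a sign. The cause of the changes between settings was not tested. No paired analysis was possible because replicate numbers follow only the order of the samples and pair nothing between the groups. Signals of Osm, Il6 and 4 further member probe sets near the low end of the table limit what can be said of them.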
